A study of Homo sapiens with 12 samples.

Results

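Aminoacyl-tRNA synthetases were examined here in THP-1 macrophages, a human cell line that derives from a monocytic leukaemia. The genes follow a rule of annotation, chosen with earlier results of these data known. It takes every row of the count table that GENCODE 29 names as a protein-coding cytosolic or mitochondrial synthetase. AIMP1, AIMP2 and EEF1E1, which scaffold the multi-synthetase complex, were added. The rule gave 40 genes of the 58735 in the table, namely 20 cytosolic synthetase genes, 17 mitochondrial ones and 3 scaffolds. Current names are used, so that the GENCODE 29 gene WARS is WARS1 here. The cells of 6 libraries had received a miR-122-5p mimic at 30 nM, and those of the 6 others a control microRNA mimic. All cells were transfected for 24 h, rested, and then stimulated with the bacterial endotoxin LPS for 4 h. The labels describe 1 cell line with no unstimulated or untransfected cells, do not say whether the libraries came from separate cultures, and the p-values below therefore measure the spread between libraries only. The mimic itself is not counted in a gene table, so its uptake cannot be read from these data.

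Each synthetase joins an amino acid to its own transfer RNAs and so sets the genetic code at the step before the ribosome. The enzymes fall into class I and class II by the fold of their catalytic domain, and the mitochondrion has its own set, encoded in the nucleus. In human cells 8 of the cytosolic polypeptides sit together with the scaffolds in the multi-synthetase complex. Several synthetase genes are also known as targets of ATF4, the transcription factor of the amino acid response, and WARS1 is a textbook gene of the response to interferon gamma in human monocytes.

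Library totals ran from 29473750 to 35684464 counts with miR-122-5p and from 31019890 to 39468157 with the control mimic. All 10 macrophage markers had counts, and 9 of them averaged at least 1 TPM (a level scaled to transcript length and library). Their summed level was 872 to 973 TPM with miR-122-5p and 980 to 1161 TPM with the control mimic. By the test given below, 5 of the 9 tested macrophage markers were called lower, 1 higher and 3 not (median log2 fold change −0.36). Over all tested genes 26.2% were called lower and 24.3% higher. The largest falls among these markers were those of FCGR1A (−2.71) and PTPRC (−1.21). CD68 was at 0.24 CPM with miR-122-5p and 0.22 CPM with the control mimic (counts scaled to library size), with 85.8% of its exon bases shared with other annotated genes. Lymphoid markers summed to 27.8 to 41.5 TPM with miR-122-5p and 22.2 to 27.4 TPM with the control mimic. Most of that sum was GNLY, which averaged 32.6 TPM with miR-122-5p and 20.99 TPM with the control mimic. CD3D and CD3E had no count. Epithelial, stromal, endothelial and hepatocyte markers summed to 91.0 to 103 TPM and 86.1 to 95.5 TPM, with no count for EPCAM. Nearly all of this second sum was PECAM1, which averaged 93.7 TPM with miR-122-5p and 89.2 TPM with the control mimic. Only 1 of these 6 markers, PECAM1, averaged at least 1 TPM. The groups also differed in a technical measure: the slope of gene level on transcript GC content, per 10 percentage points and on the log2 scale, was 0.146 ± 0.066 in miR-122-5p libraries and −0.146 ± 0.124 in control mimic libraries (SD, n = 6 each), with no overlap. Where removal of these GC trends changed the call of a reported member, this is therefore said below. The part of the marker shifts in the results was not tested.

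Of the 40 genes, 39 had enough counts to be tested. By edgeR's quasi-likelihood test at an adjusted p of 0.05, 13 rose with miR-122-5p and 8 fell, and 18 were not called. Over all 15471 tested genes, 24.3% were called higher and 26.2% lower, so in this uncorrected test the number of synthetase genes called was near the background. After the GC and length correction described below, 18 of 39 were called higher, against 23.3% of all tested genes. With the GC slope as a covariate it was 10, against 7.22%. Those higher calls were above the background. The lower calls, 8 and 4, were near their shares of 23.5% and 12.2%. The groups did not overlap for 8 members that were higher and 5 that were lower, against 13.4% and 16.1% of all tested genes. The median log2 fold change of the members was 0.10, beside 0.01 for all tested genes. The family did not move as a block, but 2 genes stood far outside the range of the others. WARS1 and KARS1 fell by 2.37 and 1.19 on the log2 scale, while the other 37 lay between −0.50 and 0.64. In bulk RNA a lower level per cell cannot be told apart from fewer cells that carry the transcript.

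**Figure D1:**
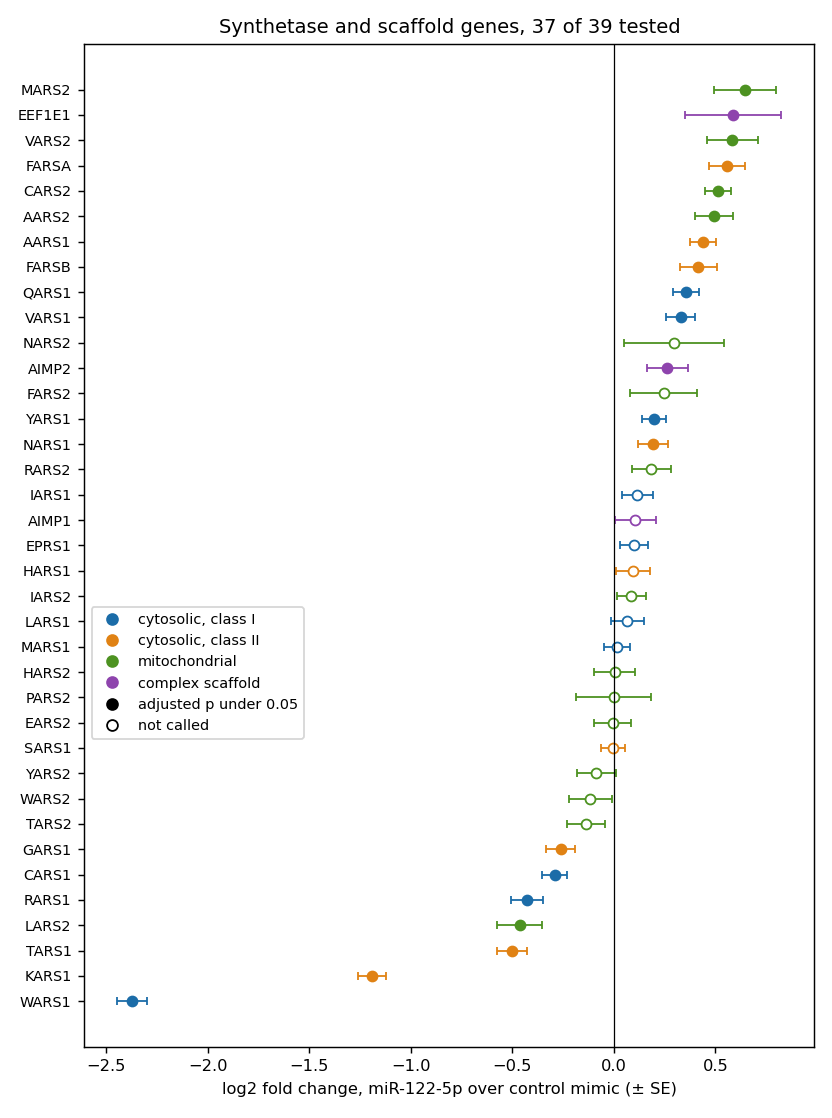
Log2 fold change of 37 of the 39 tested members, miR-122-5p over control mimic, with its standard error; colours give the role, and filled points passed an adjusted p of 0.05. WARS1 at −2.37 and KARS1 at −1.19 lie apart from the other members.

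WARS1 charges the cytosolic tryptophan tRNAs. A fragment of the protein and the full-length secreted form are known to act outside the cell, the second as an early signal of infection in macrophages. WARS1 measured 483 to 611 CPM with miR-122-5p (median 548) and 2705 to 3097 CPM with the control mimic (median 2767). Every miR-122-5p library was therefore far below every control library. The fold change was −2.37 ± 0.07 (log2, SE; adjusted p = 4.41e-16), a level 5.17-fold lower with miR-122-5p. It stayed between −2.40 and −2.31 under all 24 alternative analyses, each library left out in turn included. The gene lies at chr14:100333788-100376805 on the minus strand (hg38), and 10.6% of its exon bases are shared with WDR25 and AL157871.4.

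The promoter of WARS1 is shown because 4 of 7 tested interferon factors fell in the same libraries, while 3 were not called. No link between them was tested. RefSeq (GRCh38.p14) gives 2 start windows for the gene, each from 250 bases before to 50 bases after a start site. The downstream window, chr14:100375298-100375597, holds a GAS-type match (TTCNNNGAA, a motif that STAT dimers bind) that begins 142 bases before the start site, and an ISRE-like match (GAAANNGAA, the motif of interferon regulatory factors) that begins 55 bases before it. The stretch from chr14:100375374-100375509 holds both, in capitals, 5′ to 3′ on the minus strand.
WARS1 start window: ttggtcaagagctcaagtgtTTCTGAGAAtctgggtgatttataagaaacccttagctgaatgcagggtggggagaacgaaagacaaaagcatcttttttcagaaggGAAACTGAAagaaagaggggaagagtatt
On either strand the ISRE-like letters occurred in 8.11% and the GAS letters in 7.66% of the 35116 windows of the RefSeq table, and both in 0.948%. Among the 45 windows found for 33 members, this was the only window with both. Each motif by itself occurred in 15.6% of these member windows. The ISRE-like letters occurred in 6 members: WARS1 and GARS1, which fell, EEF1E1, which rose, and AIMP1, EARS2 and IARS1, not called. The GAS letters occurred in 5: WARS1, TARS1 and CARS1, which fell, and PARS2 and WARS2, not called. The other WARS1 window and the KARS1 window held neither.

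Of 7 interferon signal transducers and factors, 4 fell and none was called higher (median −0.34), beside 26.2% lower and 24.3% higher over all tested genes. IRF9, named after its values were seen, just missed the threshold at 0.26 ± 0.11 (adjusted p = 0.0505), with 48.4% of its exon bases shared with another gene. It was called higher by DESeq2, limma-voom and 4 other settings. The same held without miR-122-5p library 3 or 5 or control library 2 or 4. IRF1 and IRF8 were not called, at 0.08 ± 0.08 (adjusted p = 0.394) and −0.03 ± 0.10 (adjusted p = 0.789). STAT2, which carries signals from the type I interferon receptor, measured 130 to 159 CPM with miR-122-5p (median 142) and 249 to 287 CPM with the control mimic (median 270.2), a log2 fold change of −0.90 ± 0.06 (adjusted p = 2.96e-10). All miR-122-5p libraries lay below all control libraries. IRF2 fell by 0.91 on the log2 scale, again without overlap, and IRF7 fell by 0.34 with overlap. That WARS1 and these factors moved in the same direction is a description of the same 12 libraries, and no relation between them was tested.

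KARS1 makes both the cytosolic and the mitochondrial lysyl-tRNA synthetase from one gene by alternative splicing, and is also known for making the signalling nucleotide Ap4A in stimulated rodent mast cells. KARS1 measured 88.7 to 108 CPM with miR-122-5p (median 98.0) and 209 to 240.4 CPM with the control mimic (median 225). The groups were well apart. The log2 fold change was −1.19 ± 0.07 (adjusted p = 5.56e-12), a level 2.28-fold lower with miR-122-5p, and it lay between −1.22 and −1.08 under the 24 alternatives. The gene is at chr16:75627474-75648643 on the minus strand, with 4.33% of its exon bases shared with TERF2IP. The enzymes that share the complex with KARS1 did not follow it in size: RARS1 fell by 0.43 on the log2 scale, QARS1 rose by 0.35, and EPRS1, IARS1, LARS1 and MARS1 were not called, at 0.10, 0.12, 0.07 and 0.02.

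The lower WARS1 level made up nearly all of the lower summed level of the family. The 37 synthetase genes summed to 1992 ± 69.1 TPM with miR-122-5p and 3036 ± 98.0 TPM with the control mimic (SD, n = 6 each). Without WARS1 the sums were 1746 ± 57.0 TPM with miR-122-5p and 1755 ± 54.2 TPM with the control mimic, and the libraries of the groups overlapped. WARS1 made up 12.3 ± 1.07% of the family's TPM in miR-122-5p libraries and 42.2 ± 1.19% in control mimic libraries. By TPM it ranked first among the synthetases in every control library and second, after SARS1, in every miR-122-5p library. SARS1, which charges serine and selenocysteine tRNAs, averaged 331 ± 14.6 TPM with miR-122-5p and 334 ± 14.9 TPM with the control mimic, and its log2 fold change was −0.01 ± 0.06.

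**Figure D2:**
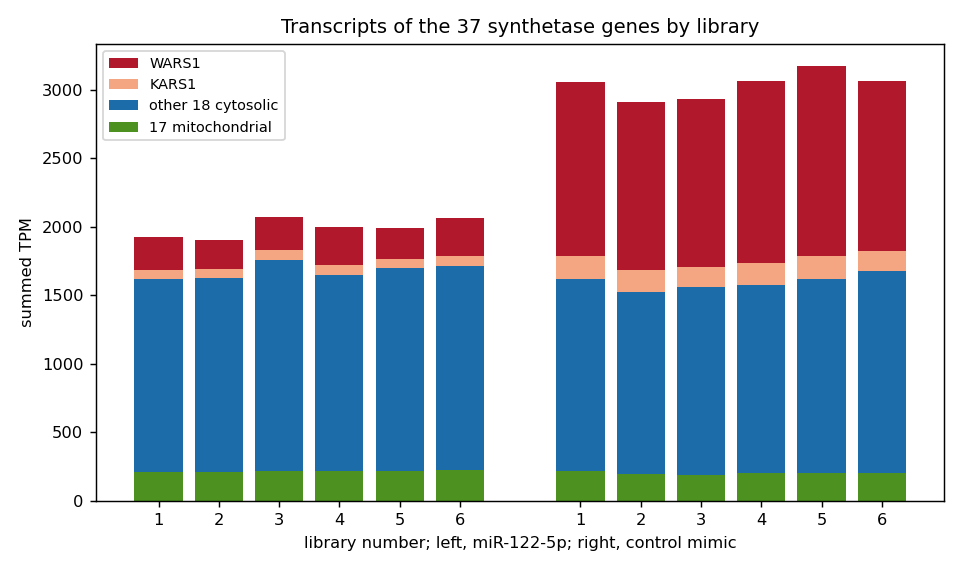
Summed TPM of the 37 synthetase genes in each library, split into WARS1, KARS1, the other 18 cytosolic genes and the 17 mitochondrial genes; miR-122-5p libraries on the left, control mimic libraries on the right. The totals average 1992 TPM with miR-122-5p and 3036 TPM with the control mimic, and the WARS1 segment makes up 12.3% and 42.2% of them.

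At the low end of the order stood SARS2, the mitochondrial seryl-tRNA synthetase, which was too low to test. Its level was 0 to 0.320 CPM with miR-122-5p and 0 to 0.280 CPM with the control mimic, and 57.0% of its exon bases are shared with MRPS12 and AC011455.2, where reads of overlapping genes are usually not assigned. NARS2 was the lowest tested member by TPM, at 1.26 ± 0.26 TPM with miR-122-5p, and was not called (0.29 ± 0.25). WARS2, which charges the mitochondrial tryptophan tRNA, measured 8.78 to 11.99 CPM with miR-122-5p (median 11.3) and 9.98 to 14.1 CPM with the control mimic (median 11.8). The groups overlapped, and the log2 fold change was −0.12 ± 0.11 (adjusted p = 0.388). The TPM ratio of WARS1 to WARS2 was 31.0 ± 4.90 in miR-122-5p libraries and 148 ± 17.6 in control mimic libraries.

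Among the 10 cytosolic class I genes 3 rose and 3 fell (median 0.08), and among the 10 class II genes 4 rose and 4 fell (median 0.04). The shares over all tested genes were 24.3% and 26.2%. TARS1, the cytosolic threonyl-tRNA synthetase, measured 73.0 to 88.5 CPM with miR-122-5p (median 79.7) and 102 to 131 CPM with the control mimic (median 112). Its groups were apart, and the log2 fold change was −0.50 ± 0.07 (adjusted p = 8.58e-06). TARS3, a cytosolic threonyl-tRNA synthetase-like gene named TARSL2 in GENCODE 29 and outside the rule for names, was low and higher with miR-122-5p (0.58 ± 0.20, adjusted p = 0.022, overlapping groups). RARS1, the arginyl-tRNA synthetase of the complex, measured 43.6 to 54.4 CPM with miR-122-5p (median 47.7) and 56.2 to 73.9 CPM with the control mimic (median 65.2). The groups did not overlap (−0.43 ± 0.08, adjusted p = 0.000112), although with the GC slope as a covariate the value was −0.08 and no longer called (adjusted p = 0.659).

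AARS1, the cytosolic alanyl-tRNA synthetase, was among the members that rose. It measured 181 to 217 CPM with miR-122-5p (median 207) and 140.1 to 167 CPM with the control mimic (median 148), and every miR-122-5p library was the higher (0.44 ± 0.07, adjusted p = 1.11e-05). QARS1, which charges glutamine within the complex, measured 131 to 156 CPM with miR-122-5p (median 139) and 107 to 115 CPM with the control mimic (median 112), again without overlap (0.35 ± 0.06, adjusted p = 7.35e-05). With the GC slope as a covariate QARS1 was at 0.28 with an adjusted p of 0.0524. FARSA and FARSB encode the catalytic and the other subunit of the cytosolic phenylalanyl-tRNA synthetase tetramer, and both rose. FARSA measured 96.7 to 129 CPM with miR-122-5p (median 109) and 62.0 to 90.4 CPM with the control mimic (median 75.9), with no overlap (0.56 ± 0.09, adjusted p = 1.93e-05), but 0.09 and not called with the GC covariate (adjusted p = 0.582). FARSB rose by 0.41 ± 0.09. The TPM ratio of FARSA to FARSB was 7.76 ± 0.80 in miR-122-5p libraries and 7.18 ± 1.64 in control mimic libraries.

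Other calls among the cytosolic genes also changed with the GC treatment. GARS1, which makes both the cytosolic and the mitochondrial glycyl-tRNA synthetase, fell by 0.26 on the log2 scale and was at −0.11 and not called with the GC covariate (adjusted p = 0.587). YARS1, the tyrosyl-tRNA synthetase, rose by 0.20 and was at 0.06 and not called after GC correction (adjusted p = 0.422). HARS1, the histidyl-tRNA synthetase, was not called at 0.10, and was called at 0.22 after that correction.

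**Figure D3:**
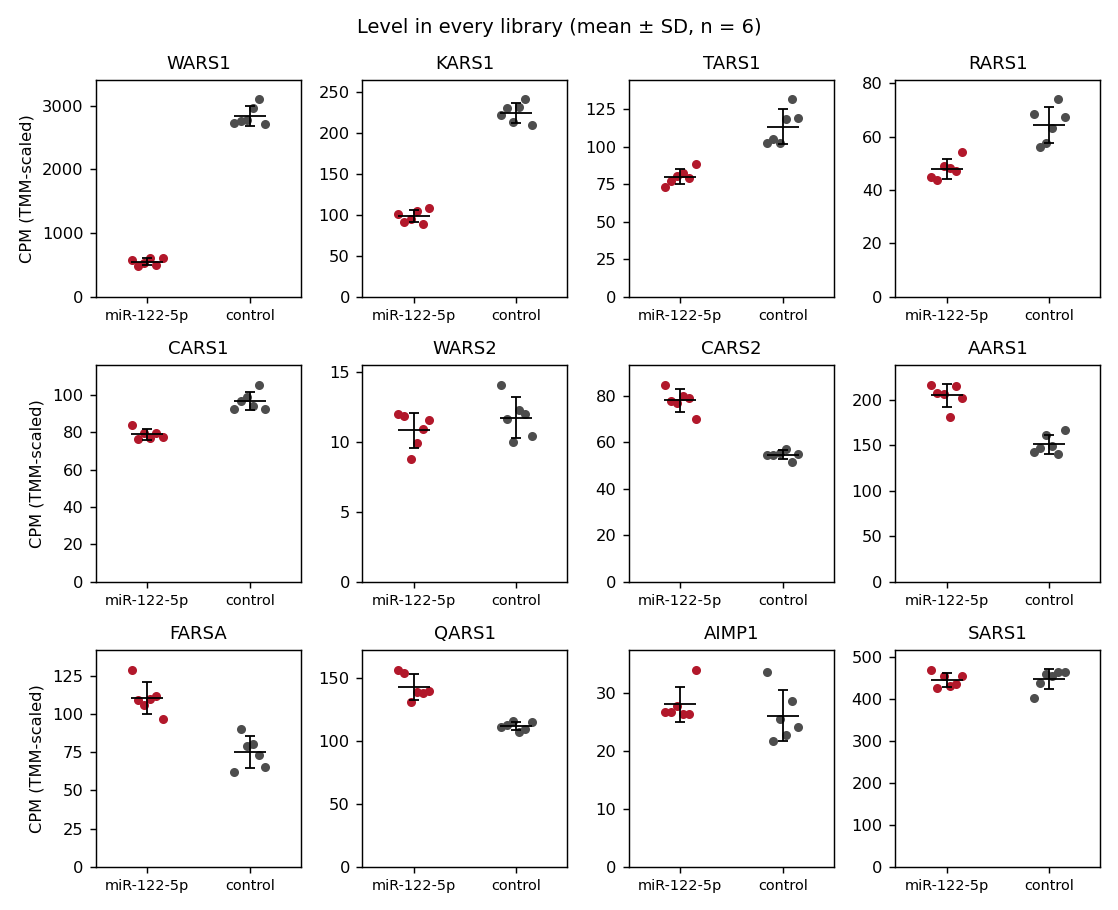
CPM in each of the 12 libraries for WARS1, KARS1 and 10 other members, miR-122-5p on the left and control mimic on the right of each panel; bars give the mean and SD of 6 libraries. For WARS1, KARS1, TARS1, RARS1 and CARS1 every miR-122-5p library lies below every control library, for CARS2, AARS1, FARSA and QARS1 above, and for WARS2, AIMP1 and SARS1 the groups overlap.

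Of the 16 mitochondrial synthetase genes tested, 4 rose and 1 fell (median 0.13), against 7 and 2 after the GC and length correction. Over all tested genes the shares were 24.3% and 26.2%, and 23.3% and 23.5% after that correction. The next values are again those of the mitochondrial synthetase genes. Their summed level was 217 ± 5.77 TPM with miR-122-5p and 202 ± 9.94 TPM with the control mimic. CARS2 was the mitochondrial member of smallest p. This cysteinyl-tRNA synthetase is also known to make cysteine persulfides. It measured 69.9 to 84.9 CPM with miR-122-5p (median 78.3) and 51.7 to 57.2 CPM with the control mimic (median 54.7), and the groups did not overlap (0.51 ± 0.06, adjusted p = 9.61e-07). Its cytosolic counterpart CARS1 went the other way, at 76.1 to 83.8 CPM with miR-122-5p (median 78.5) and 92.5 to 105 CPM with the control mimic (median 95.2), a log2 fold change of −0.29 ± 0.06 (adjusted p = 0.000427). CARS1 is described in this detail because its values were seen to oppose those of CARS2. Both calls held under both GC treatments. Of the 17 pairs of a cytosolic gene with its mitochondrial counterpart, this was the 1 called in opposite directions without correction, while both genes rose in the alanine and the valine pair and both fell in none. The 17 pairs set FARS2 beside both FARSA and FARSB, and they include SARS1 with the untested SARS2. After the GC and length correction the pairs read differently. The leucine pair (LARS1 at 0.33, LARS2 at −0.45) and the arginine pair (RARS1 at −0.18, RARS2 at 0.40) were then also called in opposite directions. TARS1 and TARS2 were both called lower at −0.29 and −0.25, and IARS1 and IARS2 both higher at 0.33 and 0.29. The valine pair was no longer called together. The TPM ratio of CARS1 to CARS2 was 1.06 ± 0.05 in miR-122-5p libraries and 1.84 ± 0.15 in control mimic libraries.

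The other mitochondrial members that rose were of lower level. MARS2, AARS2 and VARS2, which charge methionine, alanine and valine, were higher by 0.64, 0.49 and 0.58 on the log2 scale. None of them was called with the GC slope as a covariate, at 0.66, 0.26 and 0.30. In VARS2, 21.99% of the exon bases overlap other genes. LARS2, the leucyl-tRNA synthetase, was the mitochondrial gene that fell (−0.46 ± 0.11), and with that covariate it was at −0.49 with an adjusted p of 0.0905. The 11 mitochondrial members that were not called lay between −0.14 (TARS2) and 0.29 (NARS2).

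The scaffolds hold the complex together and have roles of their own: AIMP1 is cut and secreted as a cytokine, AIMP2 joins the complex's parts, and EEF1E1 (AIMP3) binds MARS1. AIMP1 measured 26.4 to 34.1 CPM with miR-122-5p (median 26.8) and 21.8 to 33.6 CPM with the control mimic (median 25.0), and the groups overlapped (0.10 ± 0.10, adjusted p = 0.414). AIMP2 measured 12.3 to 15.9 CPM with miR-122-5p (median 14.1) and 9.87 to 13.3 CPM with the control mimic (median 11.8), which also overlapped (0.26 ± 0.10, adjusted p = 0.0372). EEF1E1 was low, at 1.07 to 2.56 CPM with miR-122-5p (median 1.84) and 0.997 to 1.69 CPM with the control mimic (median 1.19), with overlap (0.59 ± 0.24, adjusted p = 0.0450). The AIMP2 call was lost when any of 6 libraries was left out and the EEF1E1 call when any of 9 was. With the GC slope as a covariate neither AIMP2 nor EEF1E1 was called, at 0.14 and 0.59 (adjusted p = 0.664 and 0.453). After the GC and length correction AIMP2 was at 0.20 and not called (adjusted p = 0.0713), while EEF1E1 was called at 0.87 (adjusted p = 0.00392). Over the complex as a whole, 3 of 11 genes rose and 3 fell, beside 24.3% and 26.2% of all tested genes. Only 1 was called higher without miR-122-5p library 1, 4 or 6 or control library 1 or 3. After the GC and length correction 6 were.

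GC content mattered for the size of many smaller changes. After the trends of gene level with GC content and transcript length had been taken out of every library, 18 members were called higher and 8 lower, against 23.3% and 23.5% of all tested genes, and the members' median was 0.21 beside 0.03 for all genes. Of these calls, 10 higher and 7 lower were shared with the uncorrected test. With the GC slope entered as a covariate instead, 10 members were called higher and 4 lower, against 7.22% and 12.2% of all genes, sharing 4 and 4. Since the slopes of the groups do not overlap, that covariate also takes up part of the difference between the groups. Called in the same direction in all 3 tests were WARS1, KARS1, TARS1 and CARS1 as lower, and NARS1, FARSB, AARS1 and CARS2 as higher. NARS1, the asparaginyl-tRNA synthetase, was called at 0.19 without correction and at 0.38 with it, and the uncorrected call was lost when any of 3 libraries was left out.

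Members of low GC content moved upward with the correction. AIMP1, the member of lowest GC content at 36.3%, was at 0.46 after the correction (adjusted p = 1.40e-05). LARS1, IARS1, EPRS1 and IARS2 were likewise called higher under both GC treatments and not in the uncorrected test of all 12 libraries. VARS1, the member of highest GC content at 62.6%, rose by 0.33 without correction and was at −0.04 with it. Over the 39 members, log2 fold change and GC content had a Pearson r of 0.11 and a Spearman rho of 0.25 before the correction, and −0.22 and −0.31 after it, as a description over genes of the same libraries.

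**Figure D4:**
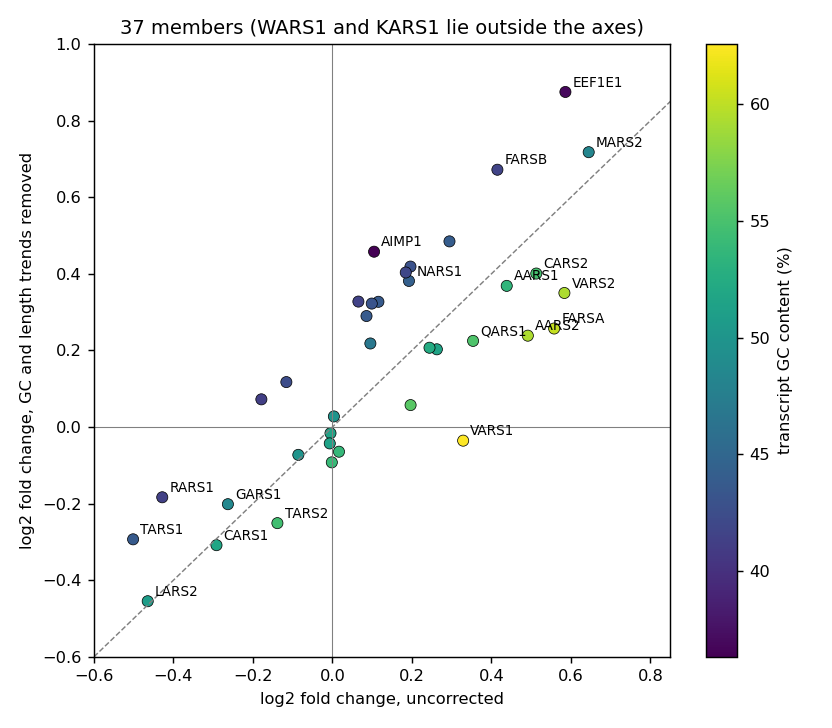
Log2 fold change of 37 members without correction (horizontal) and after removal of GC and length trends (vertical), coloured by transcript GC content; the dashed line marks equal values. Members of low GC content such as AIMP1 and FARSB lie above the line, VARS1 and FARSA below it.

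The ATF4 arm was described through its target genes and its motif. Of 29 tested genes of ATF4 and its targets, with no synthetase among them, 9 rose and 9 fell (median 0.04). That is near the 24.3% and 26.2% of all tested genes. ATF4 measured 609 to 667 CPM with miR-122-5p (median 637) and 544 to 666 CPM with the control mimic (median 610), with overlapping groups and no call (0.07 ± 0.06, adjusted p = 0.343). Targets went in both directions. MTHFD2, of mitochondrial folate metabolism, and SLC38A2, an amino acid transporter, fell by 0.97 and 0.71, while PYCR1, of proline synthesis, and GDF15, a stress hormone, rose by 0.97 and 0.58 on the log2 scale. SLC38A2 and GDF15 were not called with the GC slope as a covariate, at −0.23 and 0.29. MTHFD2 and PYCR1 stayed called, at −0.72 and 0.57 with that covariate and −0.71 and 0.61 after the GC and length correction. About 30% of the exon bases of MTHFD2 and PYCR1 overlap other genes (33.2% and 29.7%). ASNS, the asparagine synthetase, was at 0.670 to 1.98 CPM with miR-122-5p and 0.437 to 1.86 CPM with the control mimic and was not called (0.25 ± 0.31, adjusted p = 0.536), with 44.6% of its exon bases shared with another gene.

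The ATF4 composite letters (TGATGNAA, or TTNCATCA read on the other strand) occurred in the start windows of 8 of the 33 members with a window, in 17.8% of the 45 member windows and in 3.62% of all 35116. These 8 genes did not share a direction: AARS1 and NARS1 rose, TARS1, CARS1 and GARS1 fell, and IARS1, MARS1 and YARS2 were not called. The stretches below set the 2 members that rose above 2 that fell, with the match in capitals, 5′ to 3′ on the strand of the gene, from RefSeq (GRCh38.p14).
AARS1, chr16:70289666-70289713, minus: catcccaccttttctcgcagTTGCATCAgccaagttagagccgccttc
NARS1, chr18:57621795-57621842, minus: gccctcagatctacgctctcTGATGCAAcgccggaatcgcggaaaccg
TARS1, chr5:33440947-33440994, plus: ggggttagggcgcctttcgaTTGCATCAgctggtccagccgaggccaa
CARS1, chr11:3057398-3057445, minus: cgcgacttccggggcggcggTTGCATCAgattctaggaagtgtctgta
The same 8 letters, TTGCATCA, stand in start windows of AARS1, which rose, and of TARS1 and CARS1, which fell. Their places differ. The match begins 187 bases before the start site in AARS1, 2 bases before it in CARS1, and at base 3 counted from it in TARS1. A match to these letters is no measure of binding.

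Seed matches for the mimic were searched in the longest annotated 3′ UTR of each member, in GENCODE 29 transcripts. The mature miR-122-5p from RefSeq (GRCh38.p14) is printed with its seed, bases 2 to 8, in capitals. The WARS1 site and the strongest of 3 WARS2 sites follow, with the letters of each site in capitals. Each position is that of the first base of CACTCC, the letters that both sites hold.
hsa-miR-122-5p: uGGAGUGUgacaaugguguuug
WARS1 3′ UTR, position 671 of 1087: gcatgtagtcCACTCCAgaaatcatg
WARS2 3′ UTR, position 711 of 2144: tattgaggcACACTCCttggcctgca
The WARS1 site is of the 7mer-A1 class, which pairs with bases 2 to 7 opposite an A, and the WARS2 site of the 7mer-m8 class, which pairs with bases 2 to 8. KARS1, the member with the second largest decrease, had no site. Of the 39 tested members, none held an 8mer, 2 held a 7mer-m8, 5 a 7mer-A1 and 2 a 6mer as their strongest site, and 30 (76.9%) held none, beside 63.1% of the 12874 tested genes with an annotated 3′ UTR. Of the 7 members with a 7-base site, WARS1 fell, AARS2 and YARS1 rose, and WARS2, LARS1, YARS2 and MARS1 were not called. The median log2 fold change over all genes was −0.04 with a 7mer-A1 and 0.00 with no site.

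The steps before and after charging showed changes of both signs. Of 23 tested genes of tRNA maturation and export, 6 rose and 8 fell (median 0.02), beside 24.3% and 26.2% of all tested genes. The count of 8 was 4 without miR-122-5p library 3 and also 4 after the GC and length correction. RTCB, the ligase that joins the spliced ends of tRNAs and also rejoins the XBP1 transcript, measured 76.9 to 96.0 CPM with miR-122-5p (median 86.8) and 166 to 209 CPM with the control mimic (median 184), with no overlap (−1.10 ± 0.08, adjusted p = 2.07e-10). LAGE3, a subunit of the KEOPS complex that modifies tRNAs, measured 32.3 to 44.2 CPM with miR-122-5p (median 34.0) and 11.6 to 19.2 CPM with the control mimic (median 17.5), also without overlap (1.14 ± 0.12, adjusted p = 4.95e-08). Its value was 0.63 after the GC and length correction and 0.53 with the GC slope as a covariate, and it was still called. The splicing endonuclease subunit TSEN54 and the RNase P subunit RPP14 rose by 0.49 and 0.55, and neither was called with the GC slope as a covariate, at 0.12 and 0.49.

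Of 10 tested translation factors, 5 rose and 2 fell (median 0.08), beside 24.3% and 26.2% of all tested genes. The list joins elongation factors with the mitochondrial initiation factors MTIF2 and MTIF3 and the mitochondrial recycling factor GFM2. The count of 5 was 3 without miR-122-5p library 1 or without control library 6. TUFM, the mitochondrial factor, EEF1B2, the exchange factor of the cytosol, and EEF2, the translocase, rose by 0.55, 0.54 and 0.47 on the log2 scale, each without overlap. TSFM, the exchange factor for TUFM, fell by 0.59. MTIF3 fell by 0.39 and was not called under either GC treatment. With the GC covariate EEF2 was at 0.25 (adjusted p = 0.0511) and TSFM at −0.45 (adjusted p = 0.0726), and 28.5% of the exon bases of TSFM overlap other genes. Of the 4 genes of mitochondrial tRNA formylation and amidation, QRSL1, the catalytic subunit of the glutaminyl-tRNA amidotransferase, fell by 0.52 and the others were not called, and QRSL1 was at −0.22 with that covariate. Of 5 tested genes of trans-editing and peptidyl-tRNA release, none was called by edgeR, and 1 was called higher after the GC and length correction.

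The kinases that phosphorylate eIF2 alpha and so turn on ATF4 translation were counted with eIF2 alpha itself and GCN1. Of 6 genes, 1 rose and 2 fell (median −0.18), beside 24.3% and 26.2% of all tested genes. EIF2AK2 (PKR), the kinase for double-stranded RNA and a known interferon-induced gene, measured 92.3 to 126 CPM with miR-122-5p (median 111) and 216 to 281 CPM with the control mimic (median 247). The groups were apart (−1.13 ± 0.08, adjusted p = 4.38e-10). EIF2S1, which encodes eIF2 alpha, fell by 0.44 and GCN1, the partner of the kinase that senses uncharged tRNA, rose by 0.22, and neither was called with the GC slope as a covariate, at −0.18 and 0.12. Phosphorylation is not measured by these counts.

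**Figure D5:**
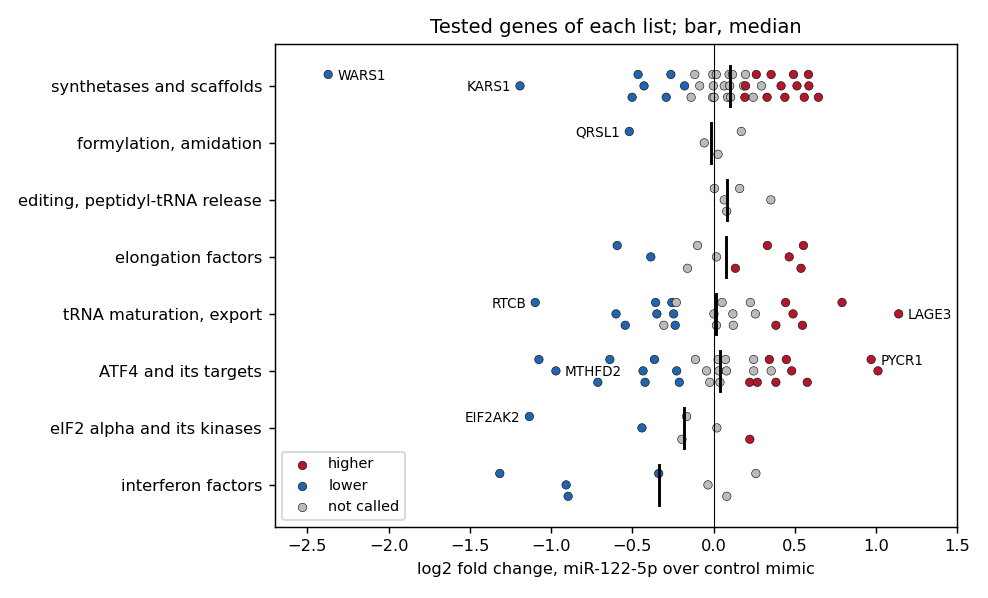
Log2 fold change, miR-122-5p over control mimic, of every tested gene in the synthetase family and in 7 lists of neighbouring steps, with the median of each list as a bar; red and blue points were called higher and lower. In these values without GC correction, WARS1 at −2.37 is the lowest point of all lists shown, and LAGE3 at 1.14 the highest.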

How the data were processed

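The values are raw counts of reads in genes, as deposited by the authors in a single table of 12 libraries. Per the submitters' processing notes, the tools were HISAT2 2.0.5 and featureCounts 1.5.0-p3, on hg38. Their settings, strand included, are not given, so reads of overlapping or antisense genes are uncertain. Columns were matched to groups by their names, the control columns by their numbers and by being the only other ones. All 58735 identifiers were found in GENCODE 29, which gave names, exon overlaps, transcript GC content and length (longest transcript) and 3′ UTRs. In R 4.3.3 with edgeR 4.0.16, filterByExpr kept 15471 genes. TMM factors, the quasi-likelihood test and Benjamini-Hochberg adjustment over all tested genes were used, with a threshold of 0.05. CPM values are TMM-scaled. TPM values were computed from the counts and merged exon lengths. A log2 fold change is miR-122-5p relative to control mimic and is given with its SE. The test was checked on simulated data.

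Members and gene lists were chosen with earlier results of these data known. Values per library are given for the 4 members of smallest p in each direction, WARS1, WARS2 and the scaffolds, and for at most 4 genes of smallest p in each other list plus ATF4 and ASNS; CARS1 and members that change with GC treatment were added after their values were seen. Alternatives were DESeq2 1.42.0, limma-voom (limma 3.58.1), RLE size factors, library totals, other filters, an adjusted p under 0.01, GC treatments, a replicate block, each library left out, both control libraries 1 and 6 left out, and no mitochondrially encoded genes. The GC and length correction fitted natural splines with 4 degrees of freedom per library and used them as offsets. No library was a copy of another of its group (chi-square over degrees of freedom, 7.38 to 65.5 per pair). Same-numbered libraries did not deviate together, so they were not treated as pairs. The values of 3 genes are not reported here.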

Additional observations from a re-analysis of the deposited data

Results flagged for a closer look

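In 2 of the 86 sets of 6 libraries checked, 1 library lay far from the other 5 by Dixon's test at the 95% level, a flag that chance gives in about 1 of 20 sets. AIMP1 was at 34.1 CPM in miR-122-5p library 6, against 26.4 to 27.9 CPM in the other miR-122-5p libraries. MARS2 was at 4.54 CPM in miR-122-5p library 1, against 5.72 to 6.25 CPM in the other miR-122-5p libraries, and its control mimic libraries lay between 2.68 and 5.09 CPM.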

How the results depend on the processing

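WARS1, KARS1, TARS1 and CARS1 stayed lower, and CARS2, AARS1 and FARSB higher, past the threshold under all 24 alternatives. Members called higher numbered 9 to 18 over the alternatives (13 as reported) and 10 to 14 with 1 library left out. Members called lower numbered 7 or 8, except 4 with the GC slope as a covariate. That covariate moved the split of calls over all genes to 37.2% higher, against 48.1% as reported. With the replicate block, 11 members were called higher and 7 lower; same-numbered libraries correlated at −0.10 to 0.07, and 1 of 6 pairs correlated best with its own number. Calls of genes near the threshold rested on single libraries. AIMP2 was lost (adjusted p 0.051 to 0.080) without miR-122-5p library 1, 4 or 6 or control library 1, 3 or 6, EEF1E1 (0.051 to 0.123) without miR-122-5p 1, 2, 4 or 6 or control 1 to 5, and NARS1 (0.050 to 0.064) without miR-122-5p 6 or control 2 or 4. RARS2 was gained (0.029) without control 4. With both control libraries 1 and 6 left out, IARS1 (0.021) and IARS2 (0.038) were gained as higher and AIMP2 (0.178) was lost.

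Signs turned, without a call in either direction unless stated, as follows. WARS2 was at 0.019 with the GC covariate, 0.117 with the GC and length correction and 0.117 with that correction and the replicate block. MARS1 was at −0.065 with the correction and −0.063 with the block added, VARS1, called higher as reported, at −0.036 and −0.033, and ATF4 at −0.116 and −0.110. HARS1 was at −0.125, ASNS at −0.121 and IRF9 at −0.0064 with the GC covariate, and without control libraries 1 and 6 HARS2 was at −0.018 and ASNS at −0.025. For the members near 0, DESeq2, RLE, library totals, no filter and the 1 CPM filter gave 0.0034, 0.0026, 0.035, 0.014 and 0.0032 for SARS1, then 0.0048, 0.0041, 0.039, 0.014 and 0.0049 for EARS2, and 0.0078, 0.0071, 0.041, 0.017 and 0.0076 for PARS2; limma-voom gave 0.0021 for EARS2, and the replicate block 0.0016 for EARS2 and 0.0014 for PARS2. With 1 library left out, SARS1 ran from −0.032 to 0.015, EARS2 from −0.047 to 0.052, PARS2 from −0.070 to 0.100, HARS2 from −0.054 to 0.055 and MARS1 from −0.0087 to 0.042. The cause of these changes was not tested. With the GC covariate the calls were 1 higher and 2 lower for tRNA maturation and 2 and 3 for ATF4 targets. They were 3 and 0 for the list of elongation and other translation factors, and 0 and 1 for eIF2 alpha and its kinases. As reported, 4 interferon factors were lower.

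Levels near 1 CPM, as in EEF1E1, NARS2 and ASNS, limit what could be called, with standard errors of 0.24 to 0.31.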
